A study of Mus musculus with 4 samples.

Results

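The R-spondins are secreted proteins that strengthen Wnt/β-catenin signalling. The group described here holds the R-spondin genes *Rspo1*, *Rspo2*, *Rspo3* and *Rspo4*, the receptor genes *Lgr4*, *Lgr5* and *Lgr6*, and *Znrf3* and *Rnf43*, which encode the ubiquitin ligases that R-spondins act against. All 9 genes were on the array, as 21 of its 41174 probes and 9 of its 18322 gene symbols. RNA was taken from dissected E12.5 midbrain, covering the mesodiencephalic and retromammillary tegmentum, of *Lmx1a-dr/dr* and wild-type (*Lmx1a*+/+) embryos. *Lmx1a-dr/dr* embryos are homozygous for the dreher mutation dr-J in the LIM-homeodomain gene *Lmx1a*, which the study treats as a null allele; they came from heterozygous crosses on a C57Bl/6J background. Each of 4 mutant samples (replicates a to d) was RNA pooled from 5 *Lmx1a-dr/dr* midbrains, and each shared a dual-colour Agilent array with a single wild-type pool of 20 midbrains. Mutant RNA was labelled with the dye Cy3 for replicates a and c, and with Cy5 for b and d. Since 1 wild-type pool served all 4 arrays, the spread between wild-type embryos is not part of any error given.

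The members were selected on the measured log2 ratio of *Rspo2* (*Lmx1a-dr/dr* over wild-type on these arrays), around which the rest of its pathway step was gathered. Every array compares the same genotypes, so the members' ratios are given as a description, without a test. In a midbrain sample a lower level can mean fewer cells that make a transcript or less transcript per cell, and these cannot be told apart here.

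In Wnt signalling, Wnt ligands bind Frizzled receptors and the co-receptors Lrp5 and Lrp6, and β-catenin then accumulates and acts with Tcf/Lef factors on target genes. Znrf3 and Rnf43 are membrane ubiquitin ligases that remove Frizzled and Lrp6 from the cell surface. An R-spondin bound to an Lgr receptor draws these ligases off, so that the Wnt receptors stay at the surface. In the ventral midbrain Wnt1/β-catenin signalling takes part in the formation of dopaminergic neurons.

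*Rspo2* lies on mouse chromosome 15. The oligonucleotides the study used for this gene outside the array are shown here because they set the stretches of the transcript that its in situ hybridization and its qPCR read; they are not the array probes. The in situ probe was cloned between the first pair and the qPCR product lies between the second pair.
Rspo2 in situ probe primer, forward: gcttctagagcgcctttccttc
Rspo2 in situ probe primer, reverse: ccatagtctcatctaacggtgca
Rspo2 qPCR primer, forward: ccgagccccagatatgaaca
Rspo2 qPCR primer, reverse: gaccaacttcacaaccttctaca

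Values are log2 ratios of *Lmx1a-dr/dr* over wild-type, computed from mean spot intensities after 1 loess curve per array. Their precision is limited by the number of arrays and, for dim spots, by the background. A spot was called above background when its mean exceeded the local background median by more than 2 background SD. By this measure 11 of the 21 member probes, from 7 genes, were above background in both genotypes on all 4 arrays, against 77.2% of all probes. The other 10 probes had mean log2 ratios between -0.06 and 0.05, and all probes of *Rspo4* and *Rnf43* were among them. Ratios depended on dye across the array. Ratios of arrays with opposite dye orientation correlated at r = -0.342 to -0.29 across probes, and those with the same orientation at 0.579 and 0.639; probes are not independent replicates. Therefore every probe's fit included dye as a term, and errors named SE are moderated errors of that fit.

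**Figure D1:**
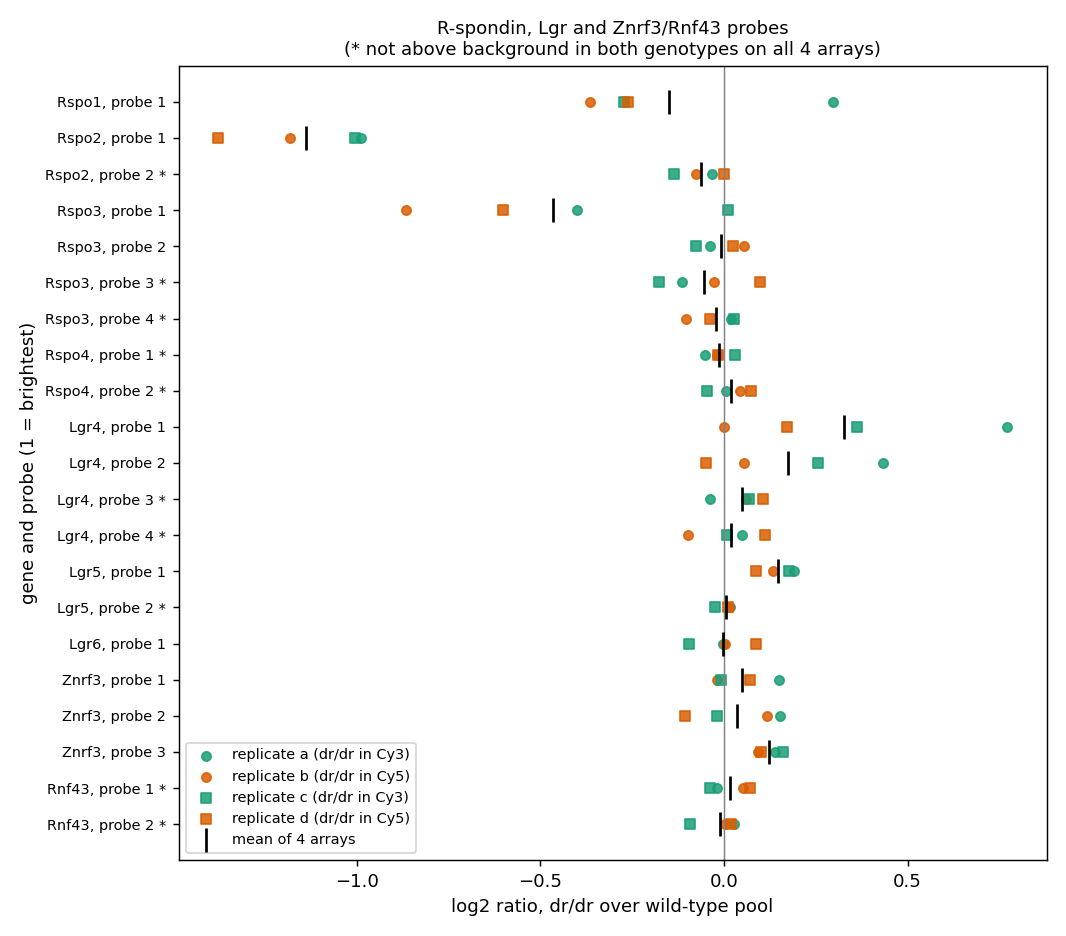
Log2 ratio of *Lmx1a-dr/dr* over the wild-type pool (x axis) for each of the 21 probes (y axis, probe 1 being the brightest of its gene), with 1 point per array coloured by the dye of the mutant RNA and a bar at the mean. The brightest *Rspo2* probe lies between -1.38 and -0.99 on all 4 arrays, while every other probe mean lies between -0.46 and 0.33.

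*Rspo2* was the member with the lowest ratio. At its brightest probe (MMAB005583) the log2 ratios were -0.99, -1.18, -1.01 and -1.38 in replicates a to d, with a mean of -1.14 ± 0.18 (SD, n = 4 arrays; SE 0.04). On average *Lmx1a-dr/dr* midbrains thus held 45.4% of the wild-type level. This was the lowest mean ratio of all 41174 probes, which is how the gene came to be selected. The spread over arrays was small beside the difference. Loess-normalised log2 levels were 8.21, 7.81, 8.08 and 7.67 in *Lmx1a-dr/dr* samples, against 9.19, 8.99, 9.09 and 9.04 in the wild-type pool, and the genotypes did not overlap. These levels are not scaled between arrays, and the wild-type values are the same pool read on every array.

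The difference was also present in the unprocessed intensities when genotypes were set side by side within a dye. In Cy3 the *Rspo2* spot read 188.3 and 174.8 in *Lmx1a-dr/dr* samples, against 323.9 and 336.7 in the wild-type pool. In Cy5 it read 352.9 and 318.6 in *Lmx1a-dr/dr* samples, against 919.0 and 845.8 in the wild-type pool. All 8 readings stood well over local backgrounds of 32 to 35. The mean log2 ratio was -0.997 with the mutant RNA in Cy3 and -1.28 with it in Cy5, so dye changed its size and not its direction. The other *Rspo2* probe (MMAB028152) gave little to measure. It was above background on 2 of 4 arrays in each genotype, with readings of 33.6 to 44.0 in *Lmx1a-dr/dr* samples and 34.2 to 62.2 in the wild-type pool, and its mean ratio was -0.06 ± 0.06 (SD, n = 4).

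**Figure D2:**
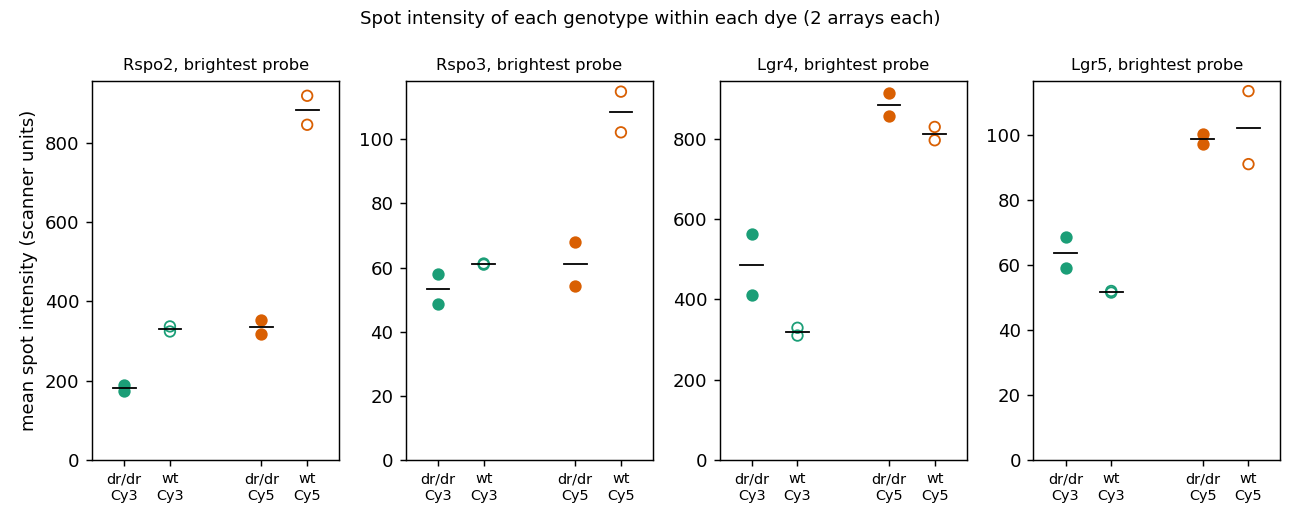
Mean spot intensity in scanner units (y axis, not normalised) of the brightest *Rspo2*, *Rspo3*, *Lgr4* and *Lgr5* probes, with *Lmx1a-dr/dr* samples (filled) left of the wild-type pool (open) within each dye; points are arrays and bars their means. For *Rspo2* the mutant readings lie below the wild-type readings in both dyes, at 174.8 and 188.3 against 323.9 and 336.7 in Cy3.

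*Rspo3*, a second R-spondin known for its role in blood vessel and placenta development, had the next lowest mean. Its brightest probe (MMAB027722) gave log2 ratios of -0.40, -0.87, 0.01 and -0.60 in replicates a to d, a mean of -0.46 ± 0.37 (SD, n = 4; SE 0.09), or 72.5% of the wild-type level. Replicate c alone showed no difference, and the normalised levels of the genotypes overlapped there. In Cy3 the spot read 48.7 and 58.0 in *Lmx1a-dr/dr* samples and 61.3 and 60.9 in the wild-type pool. In Cy5 it read 54.4 and 67.9 in *Lmx1a-dr/dr* samples and 114.9 and 102.2 in the wild-type pool. The mutant readings were thus the lower ones in each dye, by less in Cy3 than in Cy5, with mean ratios of -0.19 and -0.73.

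The spot was dim, with local backgrounds of 32 to 35, so that a good part of each reading was background. A normexp correction that removes this background without an added offset, chosen after seeing the data, gave a mean of -0.98, while normexp with an offset of 50 gave -0.35. The remaining 3 *Rspo3* probes did not show the difference: their mean ratios were -0.01, -0.05 and -0.02, and 1 of these 3 (MMAB039347) was above background in both genotypes on all arrays. Whether the probes of *Rspo3*, or those of *Rspo2*, read different transcripts was not tested.

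*Rspo1*, the R-spondin best known for ovary differentiation, had a single probe (MMAB001927), above background on all arrays. Its log2 ratios were 0.30, -0.37, -0.27 and -0.26 in replicates a to d, with a mean of -0.15 ± 0.30 (SD, n = 4; SE 0.10). The genotypes overlapped, and replicate a stood on the other side of 0 from the rest. *Rspo4*, known in humans for nail formation, had probe means of -0.01 and 0.02, and each of its probes was above background on 3 arrays in *Lmx1a-dr/dr* samples and on 3 or 2 in the wild-type pool. Its readings of 36.3 to 57.8 in *Lmx1a-dr/dr* samples and 35.0 to 87.8 in the wild-type pool leave a difference in *Rspo4* not detectable on these arrays.

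Among the receptors *Lgr4* had the highest ratio. *Lgr4* encodes the broadly expressed receptor of the family, and its brightest probe (MMAB025860) gave log2 ratios of 0.77, 0.00, 0.36 and 0.17 in replicates a to d, a mean of 0.33 ± 0.33 (SD, n = 4; SE 0.08), or 125.4% of the wild-type level. In Cy3 this spot read 561.6 and 409.6 in *Lmx1a-dr/dr* samples, against 328.9 and 309.5 in the wild-type pool. In Cy5 it read 855.7 and 913.5 in *Lmx1a-dr/dr* samples, against 829.3 and 796.1 in the wild-type pool. The mutant readings were higher in both dyes, but the ratio depended on dye, at 0.57 with the mutant RNA in Cy3 and 0.09 in Cy5, and replicate b showed no difference.

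The next brightest *Lgr4* probe (MMAB015613) followed the same course, with 0.43, 0.06, 0.26 and -0.05 in replicates a to d and a mean of 0.17 ± 0.21 (SD, n = 4). The remaining *Lgr4* probes were dimmer and averaged 0.05 and 0.02. For all 4 probes the normalised levels of the genotypes overlapped across arrays, between which they are not scaled.

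*Lgr4* was the member with the highest ratio, so the 250 bases before its gene start are shown (RefSeq, GRCm38.p6, plus strand, chr2:109917397-109917646). Capitals mark TAAT, the core bound by many homeodomain proteins, searched on both strands as TAAT and ATTA.
Lgr4 upstream of the gene start: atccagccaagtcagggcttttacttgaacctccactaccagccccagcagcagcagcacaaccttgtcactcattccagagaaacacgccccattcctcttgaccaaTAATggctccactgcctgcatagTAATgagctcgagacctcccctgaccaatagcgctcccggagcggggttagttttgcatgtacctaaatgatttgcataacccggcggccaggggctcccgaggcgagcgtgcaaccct
The window held 2 such matches. At least 1 is found in 54.9% of all 32851 promoter windows of this length, and 2 or more in 30.8%, so the matches are ordinary. RefSeq windows were at hand for 5 of the 9 members (*Rspo1*, *Rspo4*, *Lgr4*, *Lgr6* and *Rnf43*, the last with 2 windows); 2 of these 6 windows held TAAT. None of the 6 held the Tcf/Lef motif CTTTGNN with A or T at both last bases, which is found on either strand in 14.8% of all windows.

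*Lgr5*, a Wnt target and stem cell marker in the intestine, had small ratios of a single sign. At its brightest probe (MMAB005375) they were 0.19, 0.13, 0.18 and 0.09 in replicates a to d, with a mean of 0.15 ± 0.05 (SD, n = 4; SE 0.03), or 110.7% of the wild-type level. In Cy3 the spot read 68.4 and 59.1 in *Lmx1a-dr/dr* samples and 51.4 and 51.9 in the wild-type pool. In Cy5 it read 100.3 and 97.3 in *Lmx1a-dr/dr* samples and 113.4 and 90.9 in the wild-type pool, so the unscaled readings overlapped in Cy5. The other *Lgr5* probe was above background on 2 arrays in *Lmx1a-dr/dr* samples and on 1 in the wild-type pool, and averaged 0.00. *Lgr6*, the third receptor, had 1 probe, above background throughout, with ratios of 0.00, 0.00, -0.10 and 0.09 and a mean of 0.00 ± 0.07 (SD, n = 4).

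Of the ubiquitin ligases *Znrf3* was well measured. Its brightest probe (MMAB024503) read 157.8 to 361.6 in *Lmx1a-dr/dr* samples and 147.1 to 440.5 in the wild-type pool, and its log2 ratios were 0.15, -0.02, -0.01 and 0.07, with a mean of 0.05 ± 0.08 (SD, n = 4; SE 0.04). The other *Znrf3* probes averaged 0.04 ± 0.12 (MMAB000308) and 0.12 ± 0.03 (MMAB035059; SD, n = 4 each). The last of these was above 0 on all 4 arrays, with 0.14, 0.09, 0.16 and 0.10. Its normalised levels overlapped between genotypes across arrays, but these levels are not scaled between arrays. Replicate a was the brightest in both genotypes, at 6.27 in *Lmx1a-dr/dr* and 6.13 in the wild-type pool. *Rnf43* was at the limit of detection. Its probes averaged 0.02 and -0.01, and MMAB039250 was above background on 0 of 4 arrays in *Lmx1a-dr/dr* samples and on 1 in the wild-type pool, so no fold change can be given for it.

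Over the 21 probes, 2 were lower in *Lmx1a-dr/dr* on all 4 arrays (both of *Rspo2*) and 2 were higher on all 4 (1 each of *Lgr5* and *Znrf3*). The dim *Rspo2* probe (MMAB028152) is counted as lower with only -0.0004 in replicate d. Among all probes 8.02% were lower and 8.06% higher on all arrays. By the brightest probe of each gene the counts were 1 of 9 lower (*Rspo2*) and 1 of 9 higher (*Lgr5*), beside 9.0% and 6.74% of all genes. Nothing is read from these counts, since the ratios of this comparison were known when the group was formed. The median log2 ratio of the 21 probes was 0.00, as for all probes, and the median of its absolute value was 0.05 against 0.04. At 9 of the 21 probes the dye effect (the shift of each dye orientation from the mean ratio) was larger than the genotype ratio.

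**Figure D3:**
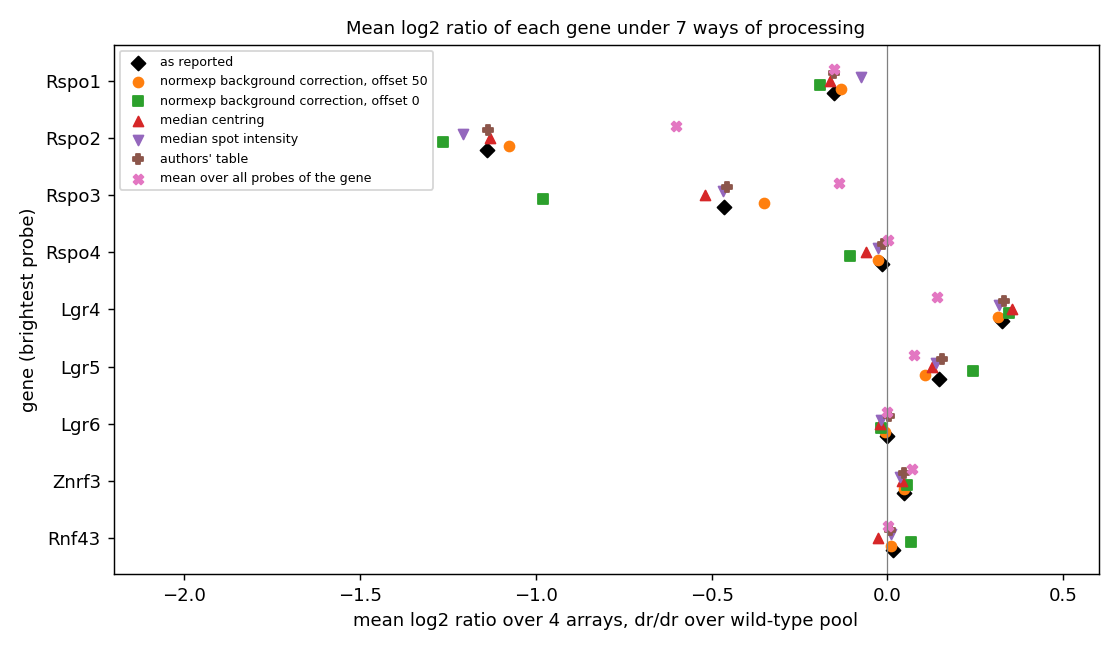
Mean log2 ratio of *Lmx1a-dr/dr* over the wild-type pool (x axis) of each member (y axis, brightest probe except for the mean over probes) under the processing used here and 6 alternatives. *Rspo2* lies between -1.26 and -1.08 except for the mean over its probes at -0.60, and *Rspo3* reaches -0.98 once background is removed without an offset.

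Across the whole array 0 probes (0.0%) passed limma at an adjusted p under 0.05. At an unadjusted p under 0.05 there were 7036. The permutation test of the study's methods was run again on the recomputed ratios and is called the F2 test here. It called 113 probes at a family-wise p under 0.05, 0.189% of all probes as lower and 0.085% as higher. These are not the study's own calls. *Lmx1a* itself, measured by 1 probe (MMAB036137), had log2 ratios of -0.46, -0.75, -0.39 and -0.84 in replicates a to d, a mean of -0.61 ± 0.22 (SD, n = 4), or 65.5% of the wild-type level. The dr-J allele is a point mutation and a transcript was still measured, so this probe checks the labels only in part.

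The genes whose 4 ratios were most like those of *Rspo2* were sought among 27215 named probes above background in both genotypes on all arrays, by Euclidean distance over the 4 arrays. The nearest were *Vangl2* at 0.61 (a planar cell polarity gene), *Nr4a2* at 0.86 (the dopaminergic transcription factor Nurr1), *Lmx1a* at 1.06, *Lrrc4b* at 1.08 and *Dlgap4* at 1.09 (both known at synapses). Their mean log2 ratios were -1.06, -0.75, -0.61, -0.68 and -0.66. The distance uses the size of the ratios, and the *Rspo2* probe had the lowest mean of all probes. The search was therefore bound to find other strongly lower probes, and no link between these genes is read from it. The likeness is also that of single probes. Other *Vangl2* probes averaged -0.51, -0.57 and 0.35, and the other *Nr4a2* probes averaged -0.09 and -0.06. The other *Dlgap4* probes averaged 0.01 and -0.49.

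The rest of the Wnt pathway was covered by 6 lists with 102 of 104 genes measured, members left out, and 95 of these genes were above background in both genotypes on all arrays. Limma called 0 of the 102 genes by their brightest probe. At an unadjusted p under 0.05, 15 were lower and 8 higher, that is, 15 and 8 of 102 beside 10.4% and 7.9% of all genes. On all arrays 12 were lower and 5 higher, beside 9.0% and 6.74% of all genes. The F2 test called 0 of the 102 by the brightest probe (against 59 of all 18322 genes) and 1, *Sdc3*, by another probe. With the median instead of the mean spot intensity, limma called 6 of the 102 as lower and 3 as higher, beside 4.87% and 2.89% of all genes. The median log2 ratio of the 102 genes was -0.01, against 0.00 for all genes.

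**Figure D4:**
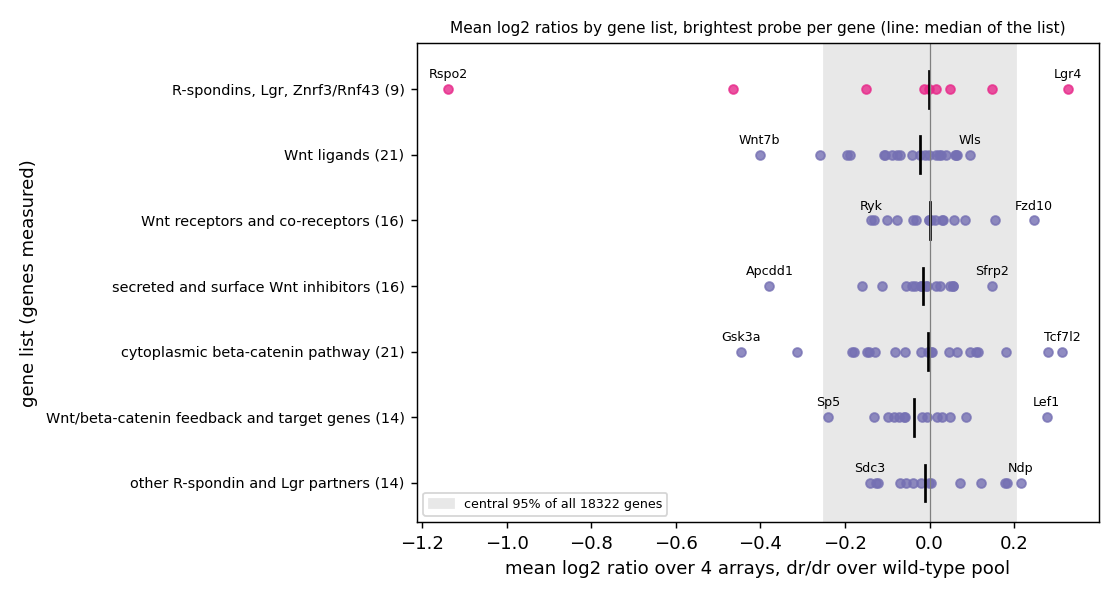
Mean log2 ratio of *Lmx1a-dr/dr* over the wild-type pool (x axis) by gene list (y axis), with 1 point per gene at its brightest probe and a line at each median; the grey band holds the central 95% of all 18322 genes. The pathway genes lie between -0.44 for *Gsk3a* and 0.31 for *Tcf7l2*; *Rspo2*, on whose ratio the group was selected, is at -1.14.

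Of the 21 genes for Wnt ligands and their secretion, 4 were lower and 0 higher on all arrays (all genes, 9.0% and 6.74%). The lowest was *Wnt7b*, with log2 ratios of -0.27, 0.01, -0.82 and -0.53 and a mean of -0.40 ± 0.36 (SD, n = 4 arrays; limma adjusted p = 0.246), and its other probe averaged -0.09. The highest was *Wls*, which carries Wnt proteins to the cell surface, at 0.10 ± 0.21 (limma adjusted p = 0.561), and its other probes averaged 0.20 and 0.03. *Wnt1*, the Wnt of the midbrain and its boundary with the hindbrain, gave -0.26, 0.16, -0.20 and 0.03, a mean of -0.07 ± 0.20 (limma adjusted p = 0.434). Its ratios lay below 0 where the mutant RNA was in Cy3 and above 0 where it was in Cy5.

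Among 16 receptors and co-receptors, 2 were lower and 2 higher on all arrays (all genes, 9.0% and 6.74%). Mean ratios ran from *Ryk* at -0.14 ± 0.24 to *Fzd10* at 0.25 ± 0.27 (SD, n = 4). Their other probes averaged -0.08 (*Ryk*) and 0.04 (*Fzd10*). *Lrp6*, the co-receptor that Znrf3 and Rnf43 clear from the surface, averaged 0.08 ± 0.16 (limma adjusted p = 0.371) and *Fzd8* averaged -0.04 ± 0.14 (limma adjusted p = 0.676). Of 16 secreted and surface inhibitors, 0 were lower and 1 higher on all arrays (all genes, 9.0% and 6.74%). This 1 was *Sfrp2*, a secreted Wnt binding protein, at 0.15 ± 0.07 (limma adjusted p = 0.148), and the lowest of the list was *Apcdd1*, a membrane inhibitor, at -0.38 ± 0.42 (limma adjusted p = 0.259) with 0.20 in replicate a, and its other probes averaged -0.14 and -0.11.

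Of 21 genes of the cytoplasmic β-catenin pathway, 4 were lower and 1 higher on all arrays (all genes, 9.0% and 6.74%). *Gsk3a*, a kinase that marks β-catenin for destruction, gave -0.32, -0.82, -0.12 and -0.52, a mean of -0.44 ± 0.30 (SD, n = 4; limma adjusted p = 0.107). The 1 higher gene was its paralog *Gsk3b*, named after its values were seen, with 0.47, 0.08, 0.49 and 0.08 and a mean of 0.28 ± 0.23 (SD, n = 4; limma adjusted p = 0.0967); its other 4 probes averaged 0.08 to 0.29. *Tcf7l2*, a Tcf factor, had the highest mean at 0.31 ± 0.72, with ratios of -0.07, 1.08, -0.49 and 0.72 that followed the dye, and its other 6 probes averaged -0.11 to 0.15. *Ctnnb1*, which encodes β-catenin itself, averaged 0.11 ± 0.55 at its brightest probe (limma adjusted p = 0.505) and likewise changed sign with the dye. The next brightest *Ctnnb1* probe (MMAB007850) averaged 0.17 ± 0.67 and also changed sign with the dye. The dimmest (MMAB031877) was above 0 on all arrays, at 0.27 ± 0.15 (limma adjusted p = 0.132).

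The next 14 genes are known as feedback or target genes of the pathway, and whether they follow it in this tissue was not tested. Of these, 1 was lower and 0 higher on all arrays (all genes, 9.0% and 6.74%). The lower one was *Sp5*, a direct β-catenin target, with -0.11, -0.17, -0.23 and -0.44 and a mean of -0.24 ± 0.14 (SD, n = 4; limma adjusted p = 0.16). *Lef1*, a target and a partner of β-catenin, had the highest mean at 0.28 ± 0.33 (limma adjusted p = 0.154), while its other probes averaged -0.07 to 0.07. *Axin2*, a standard readout of the pathway, gave 0.81, -0.60, 0.54 and -0.42 and a mean of 0.09 ± 0.70 (limma adjusted p = 0.582), so its ratios took the sign of the dye orientation. The mean holds both orientations equally, and its SE was 0.06.

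The last list held 14 further genes gathered around R-spondins and Lgr receptors, and not all of them encode partners of these. Among them were syndecans and glypicans, which carry heparan sulfate chains, and also *Insl5*, *Rxfp1*, *Rxfp2* and *Tspan12*. In this list 1 gene was lower and 1 higher on all arrays (all genes, 9.0% and 6.74%). The higher one was *Ndp*, the Norrin ligand, at 0.22 ± 0.17 (limma adjusted p = 0.128). *Sdc3*, which encodes a syndecan of neurons, was lowest at its brightest probe, with -0.41, 0.14, -0.33 and 0.04 and a mean of -0.14 ± 0.27 (limma adjusted p = 0.172). At its other probe (MMAB026061) it was lower on all 4 arrays, with -0.23, -0.54, -0.15 and -0.58 and a mean of -0.37 ± 0.22 (SD, n = 4; F2 permutation p = 0.0174, limma adjusted p = 0.0967). The probes of *Sdc3* therefore differed in the call.

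Markers of the dissected tissue and of other cell types were read on the same arrays. All 14 midbrain floor plate and dopaminergic markers were above background in both genotypes on all arrays. Of these 14, 4 were lower and 1 (*Otx2*) higher on all arrays, beside 9.0% and 6.74% of all genes, and their summed normalised intensity was 5927 to 7619 in *Lmx1a-dr/dr* samples against 6558 to 8180 in the wild-type pool. Among the 4, *Nr4a2* and *Th*, the marker enzyme of dopaminergic neurons, were called by the F2 test, beside 59 of all 18322 genes by the brightest probe. Of 10 roof plate and choroid plexus markers 2 were lower and 3 higher on all arrays, *Otx2* again among the 3 since both lists hold it. These markers summed to 2354 to 3301 in *Lmx1a-dr/dr* samples and 2324 to 2720 in the wild-type pool. In both genotypes 8 of the 10 were above background on all arrays, *Kl* and *Folr1* among them. *Folr1* was 1 of the 3 higher ones, at 0.14 ± 0.08, and *Msx2* another, at 0.08 ± 0.05 (SD, n = 4 each). The 2 lower ones were *Bmp4*, at -0.12 ± 0.03, and *Bmp7*, at -0.12 ± 0.07 (SD, n = 4 each). *Ttr*, a choroid plexus gene, was above background on 0 arrays in *Lmx1a-dr/dr* samples and on 2 in the wild-type pool, so it gave little to measure. Meningeal and mesenchymal markers (1 of 10 higher and 0 lower on all arrays) summed to 992.1 to 1275 in *Lmx1a-dr/dr* samples and 963.2 to 1183 in the wild-type pool. Sums for 8 endothelial, 5 red blood cell, and 7 forebrain and hindbrain markers also overlapped between the genotypes, and 0 of these 20 genes kept a sign on all arrays. The sums of all marker lists are not scaled between arrays, and each wild-type range is the same pool read on every array. Overlap of the sums therefore cannot show that the cell makeup was alike. The part of the tissue's cell makeup in the *Rspo2* ratio was not tested.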

How the data were processed

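RNA of 4 *Lmx1a-dr/dr* samples was hybridized with 1 wild-type pool on 4 dual-colour arrays. The authors deposited raw spot and background intensities per channel (ImaGene, not background-subtracted) and a table of log2 ratios made by the authors with print-tip loess; set against the intensities, its 4 columns run as *Lmx1a-dr/dr* over wild-type, with medians of -0.0113 to 0.0174. Log2 ratios were recomputed from mean spot intensities without background subtraction, with 1 loess curve per array (span 0.3, 4 iterations, limma 3.58.1, R 4.3.3), since the deposited grid has 1 block. Leaving the background in place pulls ratios of dim spots towards 0. Of 45220 spots, 4046 controls had weight 0 and 41174 probes were fitted (lmFit and eBayes, genotype and dye terms, Benjamini-Hochberg over all probes). Median intensities were 137.4 to 174.2 in Cy5 and 70 to 84.7 in Cy3, over backgrounds of 31 to 34. Symbols came from the platform annotation: 34186 probes have 1 symbol and 6988 have none. The brightest probe stands for a gene in lists.

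The F2 test of the methods (5000 global residual shuffles, family-wise p under 0.05) was run in Python 3.11.15. Both tests were tested on simulated data. The members and lists were chosen with earlier results of these data known. Genes named are every member, the highest and lowest gene of each pathway list, every pathway gene called by either test, *Wnt1*, *Lrp6*, *Fzd8*, *Ctnnb1*, *Axin2*, *Lef1*, *Lmx1a* and the 5 nearest patterns to *Rspo2*; marker genes named beside their lists were chosen after their values were seen. Alternatives were normexp (offset 50, and 0 added later), median centring, median spot intensity, the authors' table, the mean over probes, each array left out and, for calls, no dye term, no dim probes, an intensity trend, the F2 test and an adjusted p under 0.10.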

Additional observations from a re-analysis of the deposited data

Results flagged for a closer look

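Of 22 probes examined (the 21 member probes and that of *Lmx1a*), 2 had 1 array far from the other 3, and chance alone flags about 1 in 20. At the *Rspo1* probe the log2 ratio of replicate a was 0.30, while the other arrays lay between -0.37 and -0.26. At the dimmer *Lgr5* probe (MMAB026630) replicate c was at -0.0246, while the other arrays lay between 0.01 and 0.02; this probe was above background on 2 arrays in *Lmx1a-dr/dr* samples and on 1 in the wild-type pool.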

How the results depend on the processing

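The *Rspo2* log2 ratio lay between -1.26 and -1.08 under every alternative except the mean over both of its probes, which gave -0.60 because the dim probe shows almost no difference, and between -1.19 and -1.09 with 1 array left out. *Rspo3*, *Rspo1*, *Lgr4*, *Lgr5* and *Znrf3* kept their sign in all 10 alternatives each; their sizes moved more. *Rspo3* ranged from -0.98 (normexp, offset 0) to -0.14 (mean over probes). *Rspo1* was -0.29 without replicate a and -0.01 without c, *Znrf3* was 0.01 without a, 0.03 without d and 0.09 without c, and the mean over probes gave 0.14 for *Lgr4* and 0.08 for *Lgr5*. *Rspo4*, *Lgr6* and *Rnf43* changed sign in 2, 3 and 1 of 10, at sizes near 0.

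Counts of member genes with 1 sign on all arrays were small and moved. Member genes lower on all arrays were 1 as reported, 3 under normexp with offset 50 or 0, 2 in the authors' table and 2 by the mean over probes, and 1 to 3 with 1 array left out. Those higher were 1 as reported, 2 under normexp with either offset, 0 under median centring, 2 with the median spot intensity and 3 by the mean over probes, and 1 to 2 with 1 array left out; fewer arrays make a shared sign easier.

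Pathway genes called were 0 by limma and remained at 0 under the other alternatives, each left-out array included, except for the following. The median spot intensity called 9 (6 lower, 3 higher), beside 1422 of all 18322 genes (7.76%). An intensity trend called 1 (*Gsk3a*, lower), beside 142 of all genes (0.775%). An adjusted p under 0.10 called 1 (*Gsk3b*, higher), beside 132 of all genes (0.72%). The cause was not tested. Spots near background limit *Rspo4*, *Rnf43* and 6 further probes of other members. No paired analysis was possible because there is 1 group of samples, so no replicate number is shared between groups; each ratio already sets mutant against wild-type RNA within an array.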
